A study of Glycine max with 12 samples.

Results

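The purple acid phosphatases measured here are 4 soybean genes, PAP25, PAP3, PAP14 and PAP02, of 6029 genes that the annotation of the Affymetrix Soybean Genome Array names by a single symbol. They were taken by symbol, as PAP followed by digits in a probe set assigned to 1 gene, and this gave 7 probe sets, 3 for PAP25, 2 for PAP3 and 1 each for PAP14 and PAP02. PAP25 was chosen by its lower values in infested than in uninfested susceptible leaves, so its values in that comparison are given as a description without a test. On the whole array 8677 probe sets carry 1 symbol, 370 carry several and 28546 soybean probe sets carry none, so purple acid phosphatases without such a symbol are not counted.

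Leaves of the third trifoliate were profiled in 4 groups, with 3 arrays per group and 12 in all. S plants were the aphid-susceptible line SD01-76R and R plants the resistant line LD05-16060, which carries the resistance gene Rag1. Plants were grown to the V3 stage and were either left without aphids (SC and RC) or given 30 soybean aphids each (SA and RA), and leaves were taken after 21 days. All plants were netted, and control leaves went through the same handling and rinsing as infested ones. Each array held RNA pooled from leaves of a pair of plants. Infested plants stood on the left of 1 growth chamber and uninfested plants on the right, so aphids and side of the chamber cannot be told apart. Each cultivar was 1 line. The aphid numbers that R and S plants carried at harvest also differed in the study's count, so a comparison of RA with SA is one of cultivar and aphid load together.

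Purple acid phosphatases are metal-containing enzymes, coloured by their iron, that release inorganic phosphate from organic phosphate esters at acid pH. Many are secreted or sent to the vacuole, and plants short of phosphate commonly make more of them to recover phosphate from soil, from the cell wall space and from their own ageing tissues. Some family members also break down phytate, the storage form of phosphate in seeds, and some have been tied to oxidative stress. RefSeq lists phytase as another name for PAP25 and for PAP3.

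Values are log2 intensities after quantile normalization of the 37593 soybean probe sets, and a difference of 1 is a change by a factor of 2. Brightness differs among probe sets for reasons other than the amount of RNA. Levels are therefore set against each other only within a probe set, apart from the coarse marker check below. All 7 probe sets lay above the median of the 60 control probe sets on all 12 arrays, and that median ran from 5.30 to 5.51 per array. Differences were fitted with limma over all 12 arrays, and rose, fell or changed is said only where the p-value, adjusted by Benjamini-Hochberg across the whole set of soybean probe sets, was under 0.05. The leaf identity of the RNA was checked against markers. The 5 leaf genes were CAB3, a chlorophyll-binding protein, and 4 Rubisco activases, on 11 probe sets. Their summed level lay between 13.18 and 14.86 over the arrays. The summed level of the 12 probe sets of 8 seed genes lay between 8.70 and 8.87. Single leaf probe sets ran from 5.05 to 13.34. The CAB3 probe set GmaAffx.1301.6.A1_at had group means of 5.27 to 5.44, about the control level. Single seed probe sets stayed between 4.55 and 5.78, also about the control level. The 1 probe set of the nodule gene NOD33 ran from 5.2 to 7.68, with its mean above the control median in all 4 groups.

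PAP25 gave a lower signal in infested S leaves than in the other 3 of the 4 groups. On the brightest of its probe sets, Gma.529.1.S1_a_at, uninfested S leaves gave 11.35, 10.40 and 10.26 in replicates 1, 2 and 3. Infested S leaves gave 7.96, 9.20 and 8.55. All 3 infested S arrays were below all 3 uninfested S arrays, and the replicate 1 arrays held both the highest uninfested and the lowest infested value. Uninfested R leaves gave 12.02, 10.98 and 11.73, and infested R leaves gave 11.49, 11.10 and 11.34. The R arrays overlapped between treatments, and no R array came as low as any infested S array.

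The mean was 10.67 ± 0.59 in SC, 8.57 ± 0.62 in SA, 11.58 ± 0.54 in RC and 11.31 ± 0.20 in RA (SD, n = 3 each). The group order was therefore RC, RA, SC and SA. RC and RA overlapped, RA and SC overlapped in single arrays, and only SA was apart from every other group. The difference of SA from SC was -2.09 (SE 0.36), a 4.27-fold lower level. It was -3.38, -1.19 and -1.71 between the arrays of replicates 1, 2 and 3, so its size varied with the pair while its direction did not. In a leaf sampled whole, fewer cells that express a gene and less RNA per cell cannot be told apart.

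**Figure D1:**
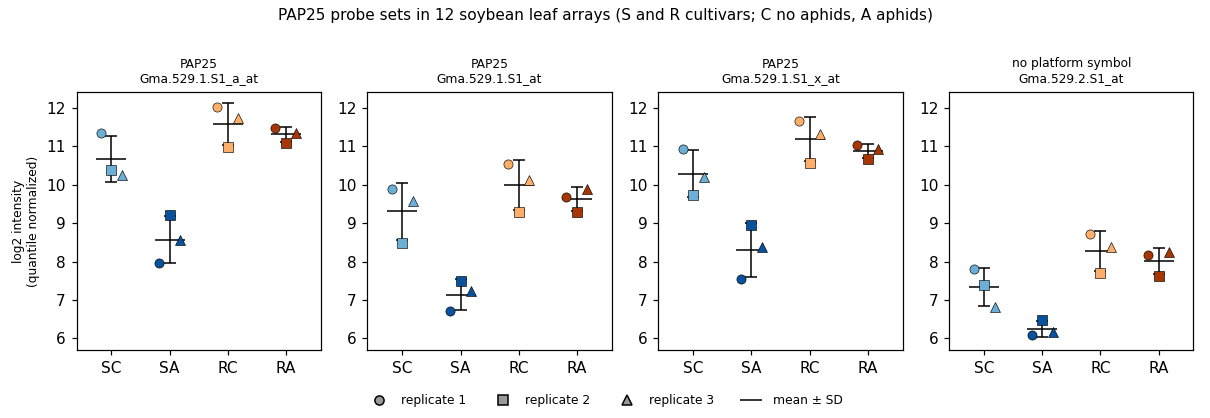
Quantile-normalized log2 intensity (y axis) of the 3 PAP25 probe sets and of the unassigned probe set Gma.529.2.S1_at in the 4 groups (x axis). Points are single arrays, shaped by replicate number, and bars are the mean ± SD of 3 arrays. In each of the 4 panels the 3 SA arrays lie below all arrays of SC, RC and RA.

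The other PAP25 probe sets gave the same picture, although they come from the same transcript cluster as the first and are no independent measure of it. On Gma.529.1.S1_at the values were 9.88, 8.48 and 9.56 in SC and 6.70, 7.49 and 7.22 in SA. In R leaves they were 10.55, 9.29 and 10.13 without aphids and 9.68, 9.28 and 9.90 with aphids. The replicate 2 arrays of both uninfested groups and of RA were the lowest of their groups, whereas replicate 2 was the highest of SA. The difference of SA from SC was -2.17 (SE 0.38).

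On Gma.529.1.S1_x_at, a probe set whose name marks probes that may also bind related transcripts, SC arrays gave 10.93, 9.74 and 10.20 and SA arrays gave 7.56, 8.94 and 8.38. RC arrays gave 11.67, 10.56 and 11.33, and RA arrays gave 11.03, 10.66 and 10.94. SA was again apart from the other groups, and the difference of SA from SC was -2.00 (SE 0.38). Over the soybean probe sets as a whole, 0.902% fell by the adjusted p in this comparison and 10.8% had all SA arrays below all SC arrays. PAP25 was chosen for this contrast, so nothing is read from its place in those shares.

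A further probe set with a related name, Gma.529.2.S1_at, has no gene in the array's annotation, while the study's own annotation places it on the same gene model as the PAP25 probe sets. It was dimmer. It gave 7.80, 7.39 and 6.83 in SC and 6.09, 6.48 and 6.17 in SA, without overlap. It gave 8.73, 7.71 and 8.37 in RC and 8.17, 7.63 and 8.25 in RA. Its difference of SA from SC was -1.09, and across the 12 arrays it followed the brightest PAP25 probe set with Pearson's r = 0.97, a description over arrays that share their groups.

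Infested R leaves provide the comparison that did not choose PAP25. There all 3 probe sets were lower on average in infested leaves, and none passed the test. The difference of RA from RC was -0.27 (SE 0.36, 95% interval -1.05 to 0.52) on Gma.529.1.S1_a_at, with an adjusted p of 1 in limma. It was -0.37 (interval -1.20 to 0.46) on Gma.529.1.S1_at and -0.31 (interval -1.14 to 0.52) on Gma.529.1.S1_x_at. These intervals leave room for a decrease by a factor of about 2 in R leaves. No soybean probe set passed in R leaves (0%). Before adjustment, limma gave p under 0.05 to 449 higher ones (1.19%) and 327 lower ones (0.870%).

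Between uninfested cultivars PAP25 was higher on average in R leaves, by 0.91, 0.68 and 0.89 on Gma.529.1.S1_a_at, Gma.529.1.S1_at and Gma.529.1.S1_x_at, and the groups overlapped. Between infested cultivars it was higher in R leaves by 2.74, 2.48 and 2.58, with all RA arrays above all SA arrays, as for 9.55% of all soybean probe sets. The response in S leaves minus that in R leaves came to -1.83, -1.80 and -1.69. These values rest on the S arrays that chose the gene and were not tested.

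**Figure D2:**
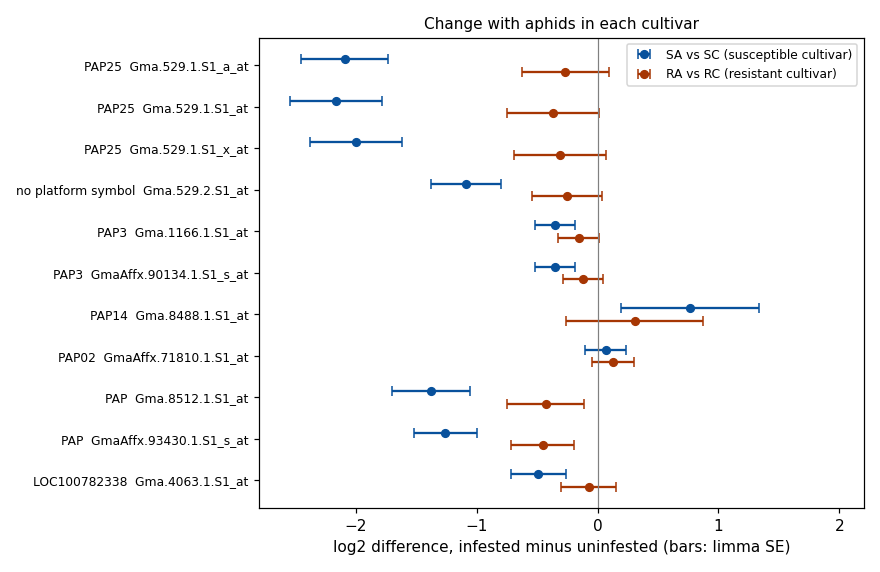
Log2 difference of infested minus uninfested leaves (x axis, bars are the limma SE) for each purple acid phosphatase probe set and for Gma.529.2.S1_at (y axis), in S plants (SA vs SC) and R plants (RA vs RC). The S differences of PAP25 lie between -2.17 and -2.00 and its R differences between -0.37 and -0.27, while PAP3 and PAP02 stay between -0.36 and 0.13 in both cultivars.

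PAP3, reported in soybean to respond to salt and osmotic stress and to ease oxidative damage, was bright and even across arrays. On Gma.1166.1.S1_at it gave 11.19, 11.22 and 11.28 in SC and 10.53, 11.12 and 10.98 in SA. In R leaves it gave 11.24, 11.44 and 11.09 without aphids and 10.93, 11.15 and 11.22 with aphids. All 3 SA arrays were below all 3 SC arrays, mostly through replicate 1, and the R groups overlapped. The difference of SA from SC was -0.35 (SE 0.17, interval -0.72 to 0.01, adjusted p = 0.32) and did not pass.

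The second PAP3 probe set, GmaAffx.90134.1.S1_s_at, gave 10.65, 10.73 and 10.57 in SC and 10.10, 10.56 and 10.21 in SA. In R leaves it gave 10.61, 11.04 and 10.79 without aphids and 10.78, 10.83 and 10.46 with aphids. Again all SA arrays were below all SC arrays, while RA and SA overlapped. The difference of SA from SC was -0.36 (SE 0.17, interval -0.72 to 0.01, adjusted p = 0.31), and that of RA from SA was 0.40 (SE 0.17, adjusted p = 0.27). The latter was the member nearest the threshold of any tested.

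PAP14, linked in soybean to the use of phytate as a phosphate source, scattered the most of the family. It gave 10.49, 9.24 and 9.05 in SC and 11.07, 9.27 and 10.74 in SA. It gave 9.88, 8.35 and 9.54 in RC and 10.13, 8.64 and 9.91 in RA. Every group overlapped its counterpart, and in SA, RC and RA the replicate 2 array was the lowest. Its difference of SA from SC was 0.76 (SE 0.57, interval -0.48 to 2.00, adjusted p = 0.56) and its difference of RA from RC was 0.31 (interval -0.94 to 1.55, adjusted p = 1). The mean of PAP14 was thus higher where that of PAP25 was lower, and the interval in S leaves spans from a small decrease to a 4-fold rise.

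PAP02 varied little among arrays. It gave 8.55, 8.29 and 8.12 in SC and 8.29, 8.22 and 8.65 in SA, and the groups overlapped. It gave 8.40, 8.08 and 8.26 in RC and 8.39, 8.17 and 8.55 in RA. The difference of SA from SC was 0.07 (SE 0.17, interval -0.30 to 0.44, adjusted p = 0.9), and that of RA from RC was 0.13 (interval -0.24 to 0.50, adjusted p = 1).

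None of the 4 probe sets of these 3 genes rose or fell in any of the 5 comparisons, beside 3.42% of all soybean probe sets called in either direction for SA vs SC, 3.00% for RA vs SA, 0.0745% for RC vs SC and 0.00798% for the interaction. At an unadjusted p under 0.05 in limma, 1 of the 4 was higher for RA vs SA (7.68% of all), and for SA vs SC none was higher (7.73% of all) or lower (8.88% of all). All SA arrays lay below all SC arrays on 2 of the 4, both of them of the 1 gene PAP3, beside the 10.8% given above for that direction. Their median difference for SA vs SC was -0.14, beside -0.04 for all soybean probe sets.

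**Figure D3:**
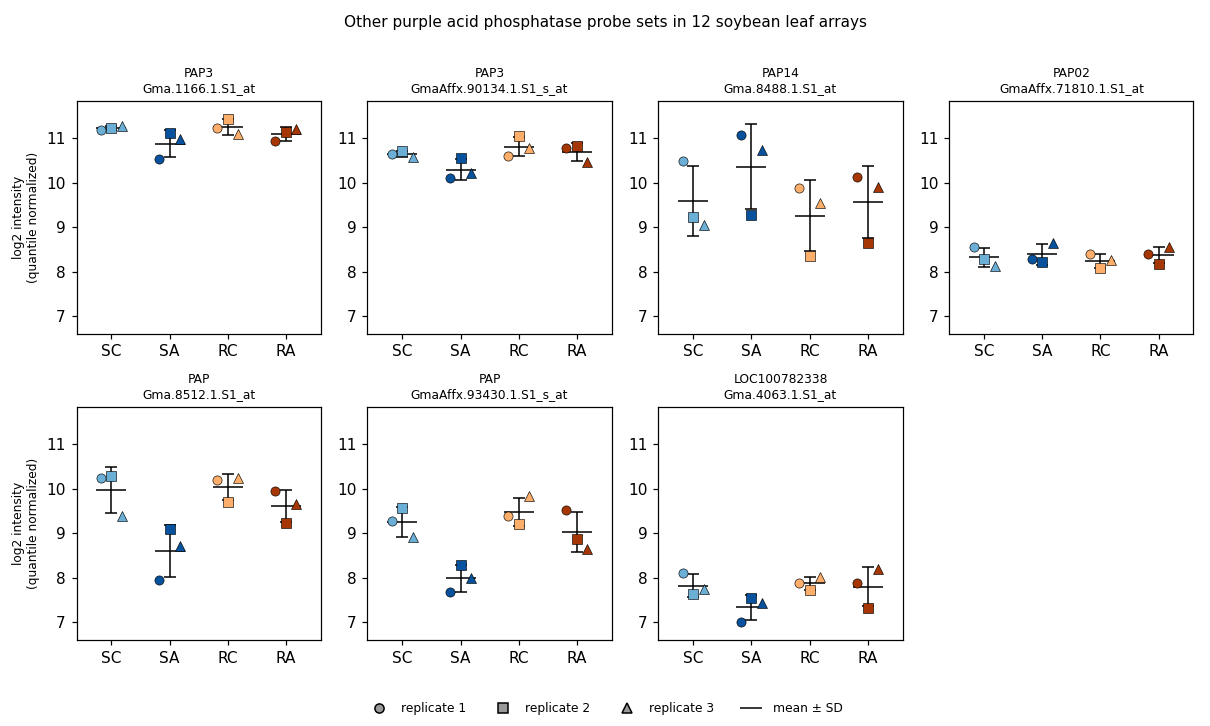
Quantile-normalized log2 intensity (y axis) of the other purple acid phosphatase probe sets in the 4 groups (x axis), with single arrays as points shaped by replicate number and the mean ± SD of 3 arrays as bars. PAP3 is slightly lower in all SA arrays than in all SC arrays without passing the test, PAP02 overlaps between groups, PAP14 runs from 9.27 to 11.07 within SA, and both probe sets of the gene with the plain symbol PAP are lower in SA than in SC.

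A gene with the plain symbol PAP, without digits, falls outside the rule and was named after its values were seen. The study's annotation calls it a putative purple acid phosphatase, and the study picked 1 of its probe sets on these arrays. Its values in infested S leaves are therefore a description. The same fit covered this gene, and its calls with S arrays, counted below, rest on the values that picked it and support nothing. On Gma.8512.1.S1_at it gave 10.25, 10.29 and 9.38 in SC and 7.96, 9.11 and 8.72 in SA, with all SA arrays lower. The difference was -1.38 (SE 0.32), a 2.60-fold lower level. In R leaves it gave 10.19, 9.71 and 10.24 without aphids and 9.96, 9.23 and 9.65 with aphids.

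Its second probe set, GmaAffx.93430.1.S1_s_at, gave 9.27, 9.58 and 8.91 in SC and 7.68, 8.29 and 7.99 in SA. All SA arrays were again lower, with a difference of -1.26 (SE 0.26). It gave 9.39, 9.21 and 9.84 in RC and 9.53, 8.88 and 8.66 in RA. In R leaves the differences were -0.43 (interval -1.13 to 0.27) and -0.46 (interval -1.02 to 0.11), neither of which passed (adjusted p = 1 in limma for both). The response in S leaves minus that in R leaves was -0.95 and -0.81, and the mean was higher in RA than in SA by 1.02 and 1.03. These values include the S arrays on which the gene was picked, so they are a description and their tests support nothing.

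The lower level of this gene in SA kept its direction across the alternatives, with differences from -1.67 to -1.06 on Gma.8512.1.S1_at and from -1.43 to -1.10 on GmaAffx.93430.1.S1_s_at. The study's cutoffs (p at most 1e-04, q at most 0.04 and a 2-fold change) were also applied to the limma fit used here. With all arrays neither probe set met them, and 0.114% of soybean probe sets met them as lower. The study used another normalization and model, so this is no check of its own list. Across the 12 arrays both followed the brightest PAP25 probe set with r = 0.87, and the corresponding r was 0.60 and 0.73 for PAP3, -0.39 for PAP14 and -0.04 for PAP02. These values describe 12 arrays in 4 groups and carry no test. LOC100782338, which RefSeq also lists as PAP01 and as a phytase, gave 8.11, 7.62 and 7.74 in SC and 7.0, 7.55 and 7.44 in SA. All SA arrays were lower, and the difference of -0.49 (SE 0.23, interval -0.99 to 0.01, adjusted p = 0.31) did not pass.

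VSPA, the vegetative storage protein that accumulates in soybean leaves and has weak acid phosphatase activity of a different enzyme family, completed the other acid phosphatases. Its 8 probe sets differed between SA and SC by -2.09 to 0.50, none passed, and the S groups overlapped on each of them. On 1 of the 8, GmaAffx.33787.1.S1_at, no array rose above its control median. With PAP and LOC100782338, which joined the list after annotation or values were seen, 2 of 11 probe sets of 3 genes, both of PAP, were called lower for SA vs SC (0.902% of all soybean probe sets) and none higher (2.51% of all). The median difference of the 11 was -1.11, beside -0.04 over all soybean probe sets. With 8 of the 11 from VSPA, and members chosen as described, these figures describe the list and support nothing. None of the 11 passed in R leaves, where the median was -0.43.

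Genes that act elsewhere in phosphate nutrition did not pass the test in infested leaves of either cultivar. The transport and sensing list held 12 genes on 13 probe sets, namely the phosphate transporters PHT1-3 and PHT1-8, the phosphate sensor SPX3, and 9 genes with PHR symbols, most of which name transcription factors of the phosphate starvation response. None of the 13 passed in any comparison with all arrays, although PHR35 was higher in RA than in SA without RA replicate 2 (0.96, adjusted p = 0.047). The median difference for SA vs SC was -0.12. The lowest was that of PHR35, at -0.73 (interval -1.29 to -0.17, adjusted p = 0.17 in limma). All SA arrays of PHR35 were below all SC arrays, as on 10.8% of all soybean probe sets. PHT1-3 differed by 0.19 (interval -0.12 to 0.51) and PHT1-8 by 0.05 (interval -0.39 to 0.49) for SA vs SC. PHT1-8 lay at about the control level. PHT1-3, with group means of 5.66 to 5.93, and the PHR probe set GmaAffx.39576.1.S1_at, with 5.55 to 5.77, were little above it.

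SPX3 differed by 0.62 with an interval of -1.83 to 3.08, too wide to place it. Replicate 2 was the lowest array in all 4 groups, and replicates 1 and 3 also differed in S leaves. SPX3 gave 8.54, 5.15 and 6.47 in SC and 9.05, 5.27 and 7.71 in SA. It gave 8.29, 5.44 and 8.38 in RC and 7.0, 4.74 and 7.25 in RA. The replicate 2 arrays thus stood at or below about the control level in each group. Of 39 probe sets (the family, Gma.529.2.S1_at and the phosphate lists), 7 had replicate 2 lowest in all 4 groups, beside 5.19% of all soybean probe sets. The labels do not say what the replicate number stands for.

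Enzymes that make galactolipids, which replace phospholipids when phosphate is short, were MGD1, DGD1 and DGD2 on 7 probe sets. None passed for SA vs SC or RA vs RC, and the median difference for SA vs SC was 0.14. Some of these probe sets were little above the control level. Group means were 5.56 to 5.70 on GmaAffx.90701.1.S1_at of DGD1. On DGD2 they were 5.45 to 6.03 for GmaAffx.91388.1.S1_at and 5.82 to 6.11 for GmaAffx.90880.1.S1_at. MGD1, a monogalactosyldiacylglycerol synthase, gave 8.67, 8.88 and 8.67 in SC and 8.18, 8.66 and 8.20 in SA, with no overlap. Its difference was -0.39 (interval -0.73 to -0.05, adjusted p = 0.22). MGD1 was higher in RA than in SA by 0.60 and did not pass with all arrays. It passed in the fit with replicate number as a block (adjusted p = 0.017) and without SA replicate 2 (difference 0.76, adjusted p = 0.016).

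**Figure D4:**
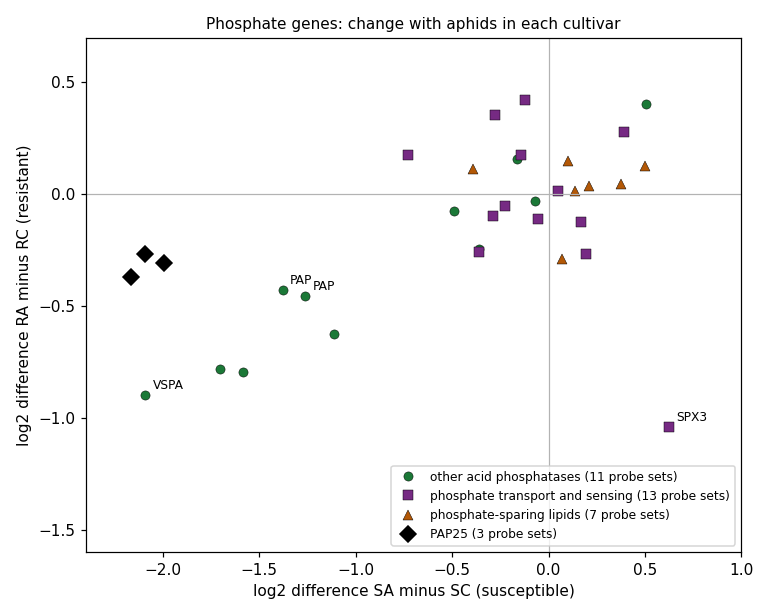
Log2 difference with aphids in S plants (x axis, SA minus SC) and in R plants (y axis, RA minus RC) for the probe sets of the 3 phosphate lists and for PAP25, 1 point per probe set. PAP25 lies at the left, as do 4 VSPA and both PAP probe sets, transport, sensing and lipid genes lie between -0.73 and 0.62 in S plants, and SPX3 is the 1 point below -1 in R plants.

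The genes whose profile was most like PAP25 were found by Pearson correlation with Gma.529.1.S1_a_at over the 12 arrays, among genes with a single symbol outside the family. SGT2, by its symbol a galactosyltransferase of soyasaponin synthesis, came first with r = 0.97. The paper instead annotates this probe set as an isoflavonoid glycosyltransferase and lists it as suppressed in infested S leaves. The means of SGT2 were 11.51 in SC, 9.67 in SA, 11.85 in RC and 11.90 in RA. After removal of the group means the r of SGT2 was 0.95. The gene was chosen by its r over the same arrays, so this value is a description only. SALI5-4A, first described as aluminium-induced, followed with r = 0.96, or 0.93 within groups.

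SALI5-4A had means of 8.35, 7.09, 9.09 and 8.68 in SC, SA, RC and RA. LOC100781043, LOC100788506 and LOC100783307 each reached r = 0.94. In all 5 genes SA was the lowest group mean. Their r values, over all arrays or within groups, come from the same 12 arrays on which these genes were chosen. Those arrays also share the group structure that chose PAP25, and no test was made. By the same measure Gma.529.1.S1_x_at ranked 1 and Gma.529.1.S1_at ranked 2 of 37592 probe sets, and Gma.529.2.S1_at ranked 4.

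**Figure D5:**
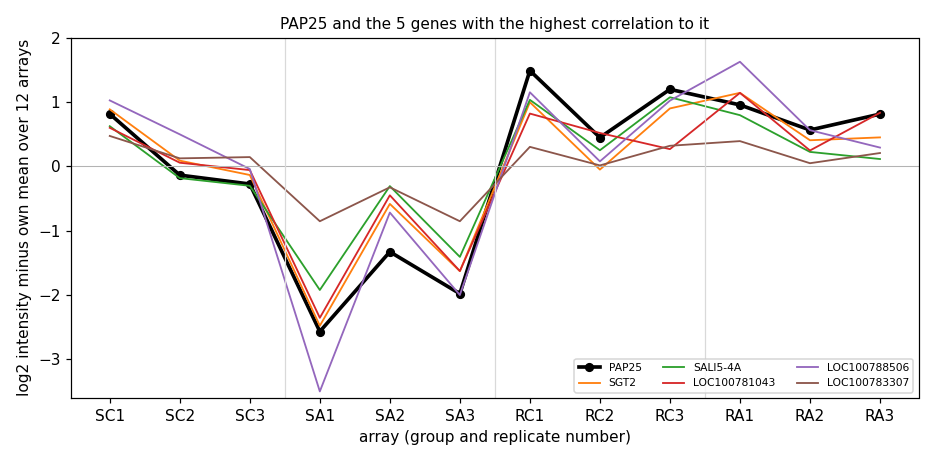
Log2 intensity minus each probe set's own mean over 12 arrays (y axis) for PAP25 (black, with points) and the 5 genes with the highest correlation to it, by array (x axis, group and replicate number). In all 6 lines the 3 SA arrays are the lowest, and replicate 2 is the highest of the SA arrays.

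Most leaf marker probe sets had a lower mean in SA than in SC, as PAP25 did. Of their 11 probe sets, which measure only 5 genes, 10 were lower in SA than in SC. Their median difference was -0.48, beside -0.04 for all soybean probe sets, and none passed the test. The summed level of the leaf markers ran from 13.78 to 14.53 in SC and from 13.68 to 14.03 in SA. In R leaves 8 of 11 were lower, with a median of -0.07, beside -0.01 for all soybean probe sets. The part of leaf condition in the PAP25 difference was not tested.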

How the data were processed

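RNA from 12 leaf samples was hybridized to the Affymetrix Soybean Genome Array, 1 array per sample. The authors deposited log2 values per probe set. The methods name GCRMA, and the labels name RMA, GCRMA and limma without versions, but 99.6% of the deposited values are the log2 of a whole number (within 1e-06), array medians run from 6.86 to 7.71, with no sign of background correction or of scaling to a common level. The 37593 soybean probe sets were brought to a common distribution by quantile normalization, without the 60 control probe sets. limma 3.58.1 in R 4.3.3 fitted group means to all 12 arrays with moderated variances. P-values were adjusted (Benjamini-Hochberg) over all soybean probe sets at 0.05. The number of arrays limits the precision, and p-values measure the spread between pools of plants in 1 experiment.

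Genes were named from the platform annotation and RefSeq (Glycine_max_v4.0), and coordinates were not used. Members and lists were chosen with earlier results of these data known. Named genes are all PAP probe sets, members of the phosphate lists that pass, the members nearest the threshold, and the 5 genes most correlated with PAP25. SPX3, PHT1-3, PHT1-8, VSPA, LOC100782338 and the plain symbol PAP were added after values or annotation were seen, and PT01, whose RefSeq synonym is a prenyltransferase, was left out. Samples were grouped by the labels. Correlations of deviations between same-numbered arrays were 0.13 to 0.36 for SA vs SC, 0.29 to 0.48 for RC vs SC and 0.17 to 0.42 for RA vs SA. All were above the minimum of 0.1, so the numbers were taken to pair arrays there, as judged from the data. The highest correlation between differently numbered arrays was 0.03 for RC vs SC and 0.05 for RA vs SA. For SA vs SC it was 0.20, above the lowest same-number value, so pairing is less clear there. For RA vs RC the same-number correlations ran from -0.12 to 0.49, and pairing was not shown. Where the block changed a call, this is given beside the result for MGD1 and in the closing section for PAP. Alternatives were the values as deposited, median centering, normexp with an offset of 50, a filter at the median level, the block, only the arrays compared, trend and robust moderation, the study's cutoffs and each array left out. The fit was tested on simulated data.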

Additional observations from a re-analysis of the deposited data

How the results depend on the processing

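PAP25 kept its direction in each comparison, and no probe set of PAP3, PAP14 or PAP02 in any comparison, nor of PAP25 for RA vs RC, passed under any alternative run. On Gma.529.1.S1_a_at the difference of SA from SC ranged from -2.41 to -1.75 and that of RA from RC from -0.57 to -0.05, and the adjusted p of the latter ranged from 0.99 to 1. The direction of PAP14 in R leaves was not settled (-0.15 to 0.77). The count of list members that passed was 2 for SA vs SC, both of the plain symbol PAP, a gene named after its values were seen, so the count is no independent support. It was 1 with normexp and 1 with only the arrays compared. With the study's cutoffs applied to the fit used here (p of 1e-04, q of 0.04 and 2-fold) it was 0. It ranged from 0 to 2 with 1 array left out. It was 0 without SC replicate 1, SC replicate 2, SA replicate 1 or SA replicate 3, and 1 without RC replicate 1, RC replicate 3 or RA replicate 3. Passes of PAP for RA vs SA carry the same limit, since they include the S arrays on which PAP was picked. For RA vs SA the count was 0. It was 1 with median centering and 2 (PAP and MGD1) with the replicate block, and it ranged from 0 to 2 with 1 array left out: 2 (PAP and MGD1) without SA replicate 2 and 1 (PHR35) without RA replicate 2. The replicate block changed no other call of the listed genes. The causes were not tested. The interaction could not be run with only the arrays compared. As deposited, the median of all soybean probe sets was -0.17 for SA vs SC and 0.14 for RA vs SA, beside -0.04 and 0.04 after quantile normalization.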
